A study of Mus musculus with 150 samples.

Results

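Calcium-binding proteins of the EF-hand family were followed through 150 single mouse somatosensory neurons: the buffer genes Calb1, Calb2 and Pvalb and the S100 genes S100a1, S100a4, S100a6, S100a10, S100a11 and S100a13. These 9 genes were taken from the 54082 gene rows of the count table. They were chosen by their measured levels in these same cells, namely which buffers each neuron type contained and how hairy-skin and glabrous-skin neurons differed among cells with at least 500 CPM of Nefh, the gene of neurofilament heavy chain. CPM is a gene's count per 1000000 counts of its cell. Those levels are therefore given as a description, and nothing is supported with them.

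EF-hand proteins bind calcium with a helix-loop-helix motif. Calbindin (Calb1), calretinin (Calb2) and parvalbumin (Pvalb) are cytosolic buffers that shape how long and how far a calcium signal spreads in a neuron, and all of them are classical markers of subsets of large sensory neurons. Most S100 proteins are dimers that change shape on binding calcium and then dock to target proteins, many of them annexins. S100a10 has lost calcium binding and works in a complex with annexin A2 that brings ion channels to the plasma membrane. In skin, A-fibre touch neurons are myelinated and rich in neurofilament heavy chain, and their subtypes are set apart by the growth factor receptors Ret, Ntrk2 (TrkB) and Ntrk3 (TrkC).

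Each sample was 1 neuron of a CD1 mouse, and its label gave the skin it belonged to: 45 were hairy, 1 carried both words and the rest were glabrous. The cells came from 10 litters, 8 at postnatal day 5 and 2, with 33 cells, at postnatal day 4. No genotype, treatment or sex is given in the labels, and what made a neuron count as hairy or glabrous is not stated there. The litter served as the replicate, because cells of 1 litter share their parents and their preparation. Plate and skin type were uneven, with 10 hairy and 85 glabrous cells on plate 1 and 35 hairy and 19 glabrous cells on plate 2.

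Totals ranged from 395811 to 1053854 counts per cell and detected genes from 4360 to 15865, with 6 cells under 10000 genes. Cells with Nefh at 500 CPM or more are called Nefh-high. The lowest of them had 623 CPM and the highest Nefh-low cell had 377 CPM. Nefh-high cells were typed by the highest of the 3 receptor genes, which gave 64 Ret cells (16 hairy, 47 glabrous and the 1 labelled with both), 20 Ntrk2 cells (3 hairy, 17 glabrous) and 20 Ntrk3 cells (all glabrous). In 14 Nefh-high cells the leading receptor was less than 2 times the next. The 46 Nefh-low cells were parted at 100 CPM of Tafa4, which marks C-fibre touch neurons, and, failing that, of Calca, which encodes CGRP: 20 Tafa4 cells, 18 Calca cells and 8 others. Since all types rest on RNA of the cells described, differences between them carry no test.

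The labels were checked against marker genes. Markers of sensory neurons in general (Avil, Isl1, Pou4f1, Prph, Snap25, Tubb3 and Uchl1) summed to a median of 9603 CPM in Ret, 9204 in Ntrk2 and 9407 in Ntrk3 cells, and to 1612 CPM in the 8 other cells. Those 8 were mixed, with sums of 149.6 to 9133 CPM, and are given no name. Among genes of A-fibre touch neurons that the typing did not use, Maf had a median of 17.4 CPM in Ret, 19.6 in Ntrk2 and 34.2 in Ntrk3 cells, and Necab2 had 14.4, 56.04 and 56.2 CPM, while the median of Mafa was 0 in each type. Gfra2, also listed for C-fibre touch neurons, had 4.63, 27.5 and 6.01 CPM in the same order. Its median was higher in the Nefh-low Tafa4 cells, at 164.8 CPM. Calca had a median of 35.2 CPM in Ret cells, 0.804 in Ntrk2 cells and 3.32 in Ntrk3 cells. Of the genes listed for proprioceptors, which include Pvalb, Runx3 had a median of 59.6 CPM in Ntrk3 cells and 0 in Ret and Ntrk2 cells. Etv1 went the other way, with 177.7 CPM in Ret, 154.3 in Ntrk2 and 36.3 in Ntrk3 cells. Heg1 had 1.47, 1.42 and 1.73 CPM in the same order, and the median of Whrn was 0 in each type. The types are therefore called by their receptor and given no name of a touch neuron class.

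**Figure D1:**
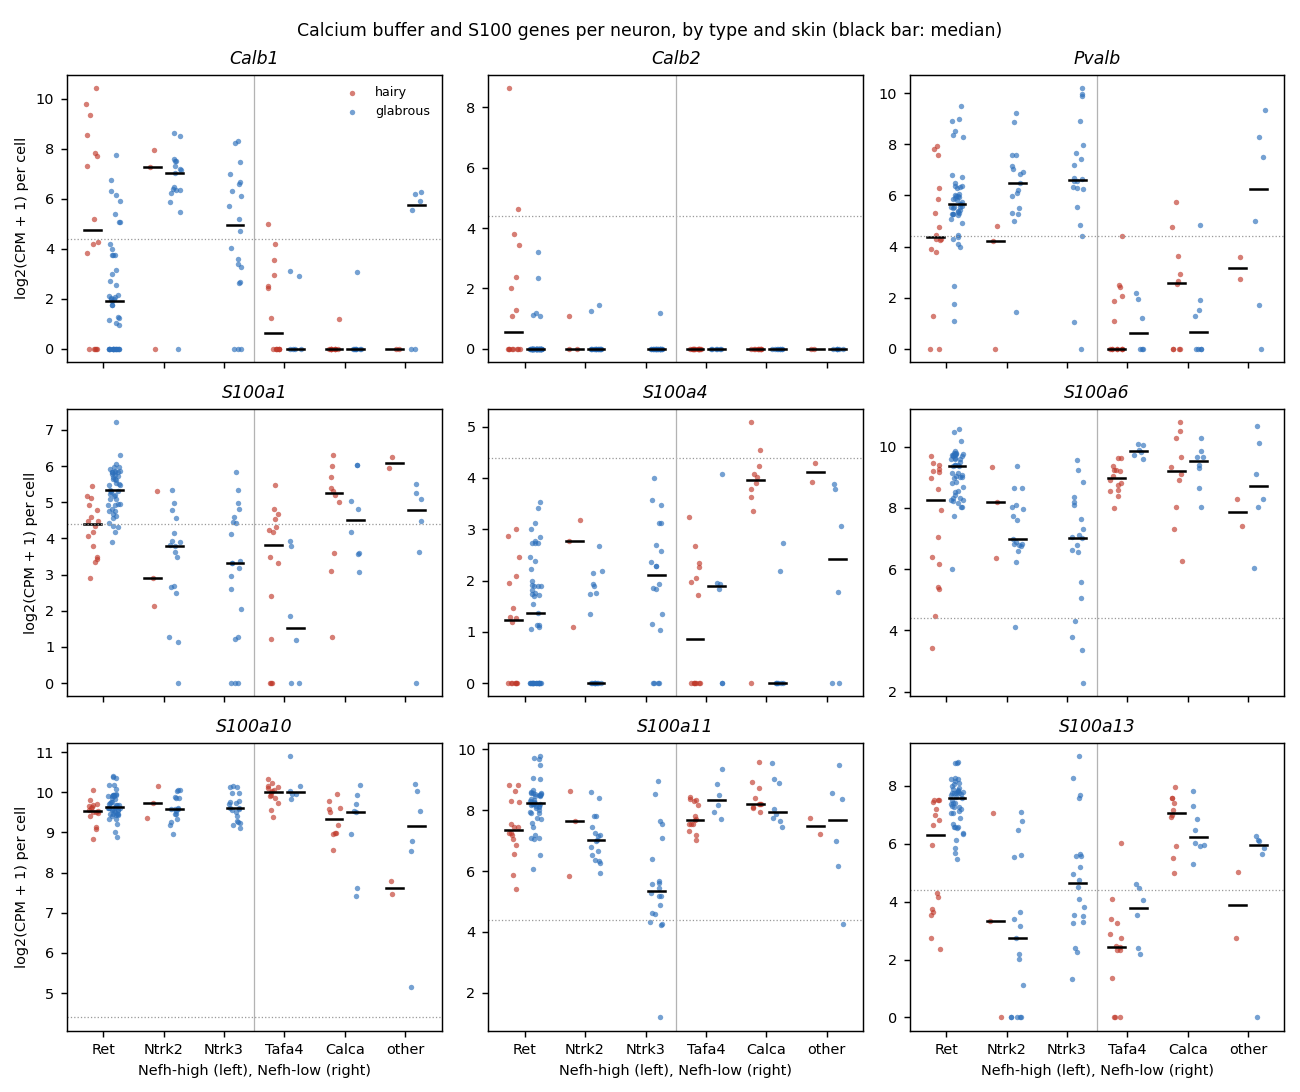
Level of each gene in every neuron with 1 skin label, as log2(CPM + 1), by neuron type and skin (hairy left, glabrous right; points are cells, bars are medians, and the dotted line is 20 CPM). Calb1 was high in Ntrk2 cells and in a set of hairy Ret cells, S100a6, S100a11 and S100a13 were high in most Ret cells, and S100a10 was high nearly everywhere.

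Calb1 had its highest median in Ntrk2 cells, while the highest single cells were Ret cells. Its level in the 20 Ntrk2 cells had a lowest value of 0, a median of 135.9 and a highest value of 397 CPM, and 18 of them reached 20 CPM. In the 20 Ntrk3 cells the lowest was 0, the median 30.6 and the highest 316 CPM, and 11 reached 20 CPM. In the 64 Ret cells the lowest was 0, the median 3.14 and the highest 1396 CPM, and 17 reached 20 CPM. The 3 ranges overlap from end to end, and the median is what parts the types. In the 7 litters that held both Ntrk2 and Ntrk3 cells, Calb1 was higher in the Ntrk2 cells in 7, and it was higher in Ntrk2 than in Ret cells in 4 of 6 litters. As means over litters the order was Ntrk2 (158 ± 75.4 CPM, SD, n = 7 litters), Ret (119.2 ± 220, n = 9), Ntrk3 (47.8 ± 57.6, n = 8), the 8 other cells (22.0 ± 25.5, n = 4), Tafa4 (4.39 ± 3.18, n = 8) and Calca cells (0.417 ± 0.926, n = 7). Of these neighbours Tafa4 and Calca cells alone differed by more than the larger SD of the pair, and the Ret mean was carried by a few very high cells.

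Pvalb was spread more evenly over the Nefh-high types. It had a median of 96.8 CPM in Ntrk3 cells, with a lowest of 0 and a highest of 1190 CPM. The median was 70.4 CPM in Ntrk2 cells (0 to 604 CPM) and 45.9 CPM in Ret cells (0 to 726 CPM). Ntrk3 cells exceeded Ntrk2 cells in 6 of 7 litters and Ret cells in 5 of 7. The means over litters were 160 ± 153, 84.7 ± 75.8 and 68.4 ± 44.3 CPM, which do not differ beyond their spread. From Ret to Calca cells (5.83 ± 8.59 CPM, SD, n = 7) the step was larger than the larger SD. Pvalb was higher in Nefh-high than in Nefh-low cells in 9 of 9 litters.

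Calb2 was nearly absent. It had a count in 17 Nefh-high cells (16.3%) and in 0 of 46 Nefh-low cells; 0 of 46 allows a share of cells with a count of up to 6.52%. Of all 150 cells 2 reached 20 CPM, both Ret cells of hairy skin, with 402 CPM in litter E_F_G and 23.7 CPM in litter A_B. Both of them also held Calb1 and Pvalb above that level. The highest glabrous cell had 8.22 CPM.

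Counting a buffer as present at 20 CPM, Calb1 with Pvalb was commonest in Ntrk2 and Ntrk3 cells, and Pvalb alone in Ret cells. Among Ntrk2 cells 16 of 20 contained Calb1 with Pvalb (80%, exact binomial 95% interval 56.3 to 94.3%). Among Ntrk3 cells 11 of 20 did (55%, 31.5 to 76.9%) and 7 of 20 had Pvalb alone. The Ntrk2 and Ntrk3 intervals overlap. Among Ret cells 36 of 64 had Pvalb alone (56.3%, 43.3 to 68.6%), 11 had Calb1 with Pvalb, 4 had Calb1 alone, 2 had all of the buffers and 11 had none. The Nefh-low cells mostly had none, with 18 of 20 Tafa4 and 15 of 18 Calca cells lacking all 3 buffers at that level. The 8 other cells were mixed, 3 having Calb1 with Pvalb and 3 none. Intervals cover the counting of cells only, and the shares depend on the level chosen: at 5 CPM 80% of Ntrk3 cells counted as Calb1 with Pvalb, and at 100 CPM 10% of Ntrk2 cells did.

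**Figure D2:**
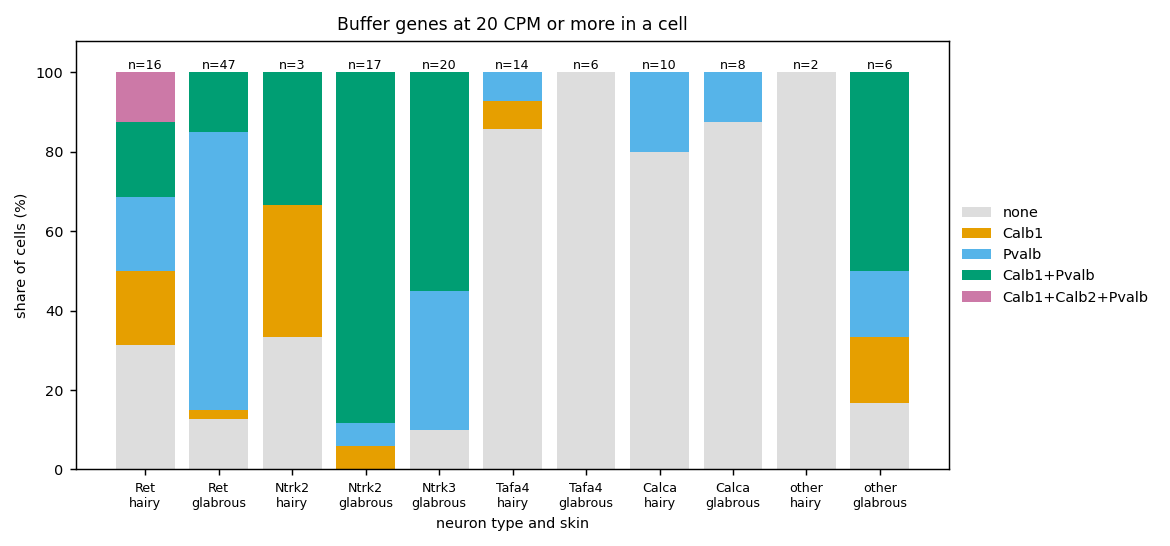
Share of cells (%) with each combination of Calb1, Calb2 and Pvalb at 20 CPM or more, by neuron type and skin; n is the number of cells. Calb1 with Pvalb filled most of the glabrous Ntrk2 bar (15 of 17 cells), Pvalb alone most of the glabrous Ret bar (33 of 47), and no buffer most of the Tafa4 and Calca bars.

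Split by skin, the hairy Ret cells were the most diverse. Of 16 hairy Ret cells 5 had no buffer, 3 Calb1 alone, 3 Pvalb alone, 3 Calb1 with Pvalb and 2 all buffers. Of 47 glabrous Ret cells 33 had Pvalb alone (70.2%, 55.1 to 82.7%), 7 Calb1 with Pvalb, 6 none and 1 Calb1 alone. The 3 hairy Ntrk2 cells had Calb1 with Pvalb, Calb1 alone and none, too few to set beside the 17 glabrous ones, of which 15 had Calb1 with Pvalb.

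Among the S100 genes, S100a6, S100a11 and S100a13 were high together in Ret cells. S100a6, whose protein binds annexins, had a median of 560 CPM in Ret cells (9.77 to 1539), 160 in Ntrk2 cells (16.1 to 664) and 128.6 in Ntrk3 cells (3.84 to 763). S100a11, an annexin A1 partner, had medians of 293, 134.97 and 40.1 CPM in the same order. S100a13, known for the release of FGF1 without a signal peptide, had medians of 160, 6.81 and 23.8 CPM. Ret cells exceeded Ntrk3 cells in 6 of 7 litters for S100a6, 6 of 7 for S100a11 and 5 of 7 for S100a13, and Ntrk2 cells in 5 of 6 for each of these genes.

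The Nefh-low cells did not share 1 pattern. S100a6 was as high there as in Ret cells, with medians of 604 CPM in Tafa4 and 656 CPM in Calca cells, and as means over litters the Ret value (559 ± 106.1 CPM, n = 9) lay next to that of the other Nefh-low cells (642 ± 665, n = 4) within the spread. S100a13 parted the Nefh-low kinds: 18 of 18 Calca cells reached 20 CPM (median 116.1), against 3 of 20 Tafa4 cells (median 5.09). S100a11 had medians of 236 CPM in Tafa4 and 294 CPM in Calca cells. S100a13 was higher in Nefh-high than in Nefh-low cells in 8 of 9 litters, whereas S100a6 was in 2 of 9 and S100a11 in 1 of 9.

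S100a1, which regulates calcium release in muscle, followed S100a13 in part. Its median was 34.4 CPM in Ret cells (6.44 to 148.1), 12.1 in Ntrk2 cells (0 to 39.4), 9.003 in Ntrk3 cells (0 to 56.5), 31.2 in Calca cells (1.401 to 77.7) and 9.62 in Tafa4 cells (0 to 43.9). Ret exceeded Ntrk2 cells in 6 of 6 litters. S100a10 was the even one of the set: its median was 779.7 CPM in Ret, 769.995 in Ntrk2 and 779 in Ntrk3 cells, 725 in Calca cells and 1030.2 in Tafa4 cells, and every cell of the 150 had a count. S100a4, a regulator of non-muscle myosin in motile cells, was low, with a median of 1.67 CPM and a highest value of 15.1 CPM in Nefh-high cells, and 2 Calca cells of hairy skin alone passed 20 CPM, at 33.1 and 22.2 CPM, the lower of them with under 10000 detected genes.

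The 6 S100 genes lie on mouse chromosome 3 in the GENCODE annotation of mm10, S100a1 and S100a13 head to head and S100a4, S100a6, S100a11 and S100a10 further along. Calb1 lies at chr4:15881264-15908064 (+), Pvalb at chr15:78191114-78206400 (-) and Calb2 at chr8:110137502-110168210 (-). All are protein-coding. S100a4 alone overlaps another gene, Gm42674, with a mean of 0.09 CPM. The RefSeq promoter table (build GRCm38.p6) had entries for 6 of the 9 genes. Shown are the 42 bases that part S100a1 from S100a13 in GENCODE, as the stretch between both genes (RefSeq puts the S100a1 start at position 90514330, inside the GENCODE gene, so that its starts lie further apart), and the bases before the starts of S100a6 and S100a11, as the other 2 genes that were high together with S100a13. All are on the plus strand, at chr3:90514393-90514434, chr3:90612644-90612881 and chr3:93520246-93520487. Capitals mark matches, on either strand, to any of 4 motifs. The TATA box was searched as TATAAA. The GC box was searched as GGGCGG. The AP-1 site was searched as TGANTCA, N being any base. The Runx core was searched as TGTGGT.
S100a1-S100a13 stretch: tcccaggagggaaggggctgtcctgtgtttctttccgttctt
S100a6 upstream: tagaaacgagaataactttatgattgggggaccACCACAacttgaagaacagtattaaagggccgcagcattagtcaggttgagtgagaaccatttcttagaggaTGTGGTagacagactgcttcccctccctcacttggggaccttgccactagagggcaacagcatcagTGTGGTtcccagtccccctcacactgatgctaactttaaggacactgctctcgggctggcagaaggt
S100a11 upstream: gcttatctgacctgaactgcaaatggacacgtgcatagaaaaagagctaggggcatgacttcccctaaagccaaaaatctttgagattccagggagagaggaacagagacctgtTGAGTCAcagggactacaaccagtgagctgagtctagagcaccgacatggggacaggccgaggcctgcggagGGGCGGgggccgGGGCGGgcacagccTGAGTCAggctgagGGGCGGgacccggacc

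The S100a6 stretch held 3 matches to TGTGGT, a motif present in the 250 bases before the start of 14.05% of 32851 promoters. The S100a11 stretch held 3 matches to GGGCGG (32.7% of promoters) and 2 to TGANTCA (6.75%). The 42 bases between the GENCODE ends of S100a1 and S100a13 held none of the 4 motifs, and TATAAA (12.4%) was in none of these stretches. A match is a description of these letters and shows no binding.

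Cell by cell, Calb1 ran opposite to S100a6, S100a11 and S100a13, while not every member fell on 1 of these sides. Over all Nefh-high cells (64 Ret, 20 Ntrk2 and 20 Ntrk3) the Spearman correlation of S100a6 was 0.81 with S100a13 and 0.78 with S100a11, and that of S100a11 with S100a13 was 0.77. Calb1 ran the other way, with -0.75 against S100a13, -0.67 against S100a11 and -0.66 against S100a6. Among the 64 Ret cells alone these values were -0.67, -0.66 and -0.48 for Calb1, and 0.68 for S100a6 with S100a13. Split by skin they were -0.88, -0.86 and -0.85 in the 16 hairy Ret cells, and -0.54, -0.52 and -0.28 in the 47 glabrous ones. In the 20 Ntrk2 cells they were -0.49, -0.31 and -0.34, and in the 20 Ntrk3 cells -0.30, -0.56 and -0.27. S100a1 and S100a13, the head-to-head pair, had 0.65 over Nefh-high cells and 0.28 within Ret cells. Calb1 with S100a1 had -0.47 over Nefh-high cells and -0.11 within Ret cells, with -0.68 in the hairy and 0.33 in the glabrous ones. With S100a10 and S100a4 Calb1 had -0.11 and 0.02 over Nefh-high cells. Pvalb had 0.28 with Calb1 and -0.38 with S100a6, -0.43 with S100a11 and -0.34 with S100a13 over Nefh-high cells. All are descriptions over cells that share litters, plates and depth, and they carry no p.

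**Figure D3:**
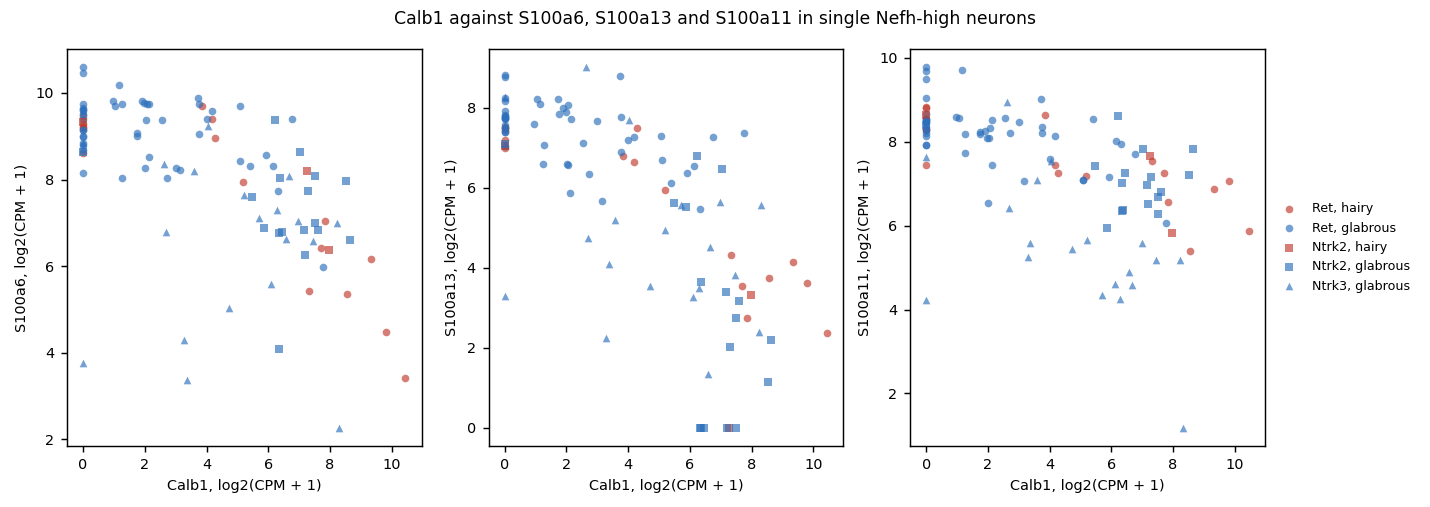
Calb1 in single Nefh-high neurons (x axes) against S100a6, S100a13 and S100a11 (y axes), all as log2(CPM + 1); marker shape gives the type and colour the skin. Cells higher in Calb1 were on the whole lower in S100a6, S100a13 and S100a11 (Spearman -0.66, -0.75 and -0.67), and the hairy Ret cells (red circles) lay at both ends.

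The genes whose levels ran most like Calb1 over the Nefh-high cells were Lgi2 (Spearman rho 0.82), which encodes a secreted leucine-rich repeat protein, the serotonin receptor gene Htr1d (0.81), the ERK phosphatase gene Dusp5 (0.80) and Ndrg2 (0.78). Most like S100a6 were Gm13425 (0.85), the monoacylglycerol lipase gene Mgll (0.82), S100a13 (0.81) and the prostacyclin receptor gene Ptgir (0.81). For Pvalb the values were lower: the heparan sulphate sulphotransferase gene Hs3st1 (0.64), the protocadherin gene Pcdh19 (0.63), Rab3il1 (0.60) and Ostf1 (0.59). Calb2 (Lrrc73 0.47, Iqsec3 0.41, Car3 0.41 and the kappa opioid receptor gene Oprk1 0.41) and S100a4 (Dlg1 0.45, Adgrd1 0.41, Thrsp 0.37 and Vstm2b 0.36) had counts in 16.3% and 62.5% of these cells, and correlations of this size in sparse counts are no finding.

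Calb1 was higher in hairy-skin than in glabrous-skin Nefh-high neurons on average, in the contrast that chose these genes. S100a1, S100a6, S100a10, S100a11 and S100a13 were lower on average, and edgeR called no member. The mean Calb1 of a litter's Nefh-high cells was 0 at the lowest, 172 at the median and 1396 CPM at the highest in hairy cells, against 9.67, 35.4 and 138.04 CPM in glabrous cells of the same 7 litters. It was higher in hairy cells in 6 of 7 litters, and the ranges overlap, with litter O at 0 CPM in its 1 hairy cell. The log2 change, hairy over glabrous, was 2.22 ± 0.95 (SE). The S100a6 mean ran from 9.77 over 278 to 435 CPM in hairy cells and from 308 over 468 to 804 CPM in glabrous cells, lower in hairy cells in 6 of 7 litters, with a change of -1.19 ± 0.57.

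The other members were nearer to their spread. S100a13 had a litter mean of 4.19 to 181 CPM in hairy cells, against 37.4 to 235 CPM in glabrous cells, and a change of -1.30 ± 0.70. Pvalb (-1.30 ± 0.69), S100a1 (-0.68 ± 0.38), S100a11 (-0.49 ± 0.52) and S100a10 (-0.15 ± 0.12) were also negative, each lower in hairy cells in 5 or 6 of 7 litters. Calb2 and S100a4 did not pass the filter on low counts. Calb2 averaged 33.8 ± 74.4 CPM in hairy cells and 0.146 ± 0.209 CPM in glabrous cells (SD, n = 7 litters), nearly all of it from the 1 cell at 402 CPM. S100a4 averaged 2.25 ± 1.23 CPM in hairy cells and 2.64 ± 2.12 CPM in glabrous cells.

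Of the 9 members 7 were tested and 0 called, and of all 12087 genes 0 were called (0%), with 729 at an unadjusted p under 0.05. DESeq2 called 89 genes and none of the members. Within plate 1 (4 litters) S100a6 had a change of -2.10 ± 0.81, S100a13 of -2.39 ± 0.74 and S100a11 of -1.25 ± 0.51, whereas within plate 2 (3 litters) they had -0.05 ± 0.20, 0.05 ± 0.75 and 0.54 ± 0.59. Calb1 had 2.62 ± 0.84 within plate 1 and 1.89 ± 1.85 within plate 2. The difference between plates was not tested.

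Since no hairy cell was of the Ntrk3 type, the mixture of types differed between skins. Ntrk3 itself, which sorts the types, had a change of -1.58 ± 0.47. With sums per receptor type and the receptor as a term, Calb1 had a change of 3.70 ± 1.23, S100a6 of -1.27 ± 0.57 and S100a13 of -1.18 ± 0.77, and none was called.

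Within Ret cells alone the contrast was wider. Calb1 litter means had a lowest, median and highest value of 0, 194 and 1396 CPM in hairy cells and of 0, 11.1 and 32.7 CPM in glabrous cells (7 litters), higher in hairy cells in 6. The change was 4.67 ± 0.97 (SE). S100a6 had 9.77, 278 and 435 CPM in hairy cells and 468, 798 and 852 CPM in glabrous cells, with no overlap between the skins in these 7 litters and a change of -1.73 ± 0.58. The hairy Ret cells of litter M, which held no glabrous ones, had 584 CPM, above the lowest glabrous litter. S100a1 had 6.44, 18.6 and 43.1 CPM in hairy cells and 29.5, 44.5 and 65.4 CPM in glabrous cells, lower in hairy cells in 7 of 7 litters, with a change of -1.22 ± 0.28. The skin contrast chose these genes. How many of the other tested genes did not overlap, or kept their direction in 7 of 7 litters, was not counted. Calca also differed between the skins over pooled Ret cells, while its litter means overlapped. Its median was 7.84 CPM in the 16 hairy Ret cells, with a highest value of 6678 CPM, and 141.98 CPM in the 47 glabrous ones, with a highest value of 12081 CPM. Litter means of Calca ran from 0 to 2286 CPM in hairy and from 3.50 to 10412 CPM in glabrous Ret cells. Over the 64 Ret cells the Spearman correlation of Calca was -0.76 with Calb1, 0.64 with S100a11, 0.61 with S100a13, 0.55 with S100a6 and -0.09 with S100a1. The part of Calca-rich Ret cells in the skin contrast was not tested. Some hairy Ret cells high in Calb1 were Ret cells by a narrow margin. With 1396 (litter H), 647 (C_D) and 375 CPM (E_F_G) of Calb1, their Ret was 1.29, 1.65 and 1.29 times the next receptor. That receptor was Ntrk2 in H and C_D, where this was the only hairy Ret cell. In hairy Ret cells with 894, 229, 206 and 159.1 CPM of Calb1, Ret was 3.19, 11.04, 17.9 and 36.7 times the next. The part of the narrow margins in the skin contrast was not tested.

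S100a13 was lower in hairy Ret cells in 6 of 7 litters, with a change of -1.71 ± 0.62 and litter means of 4.19 to 181 CPM in hairy cells, against 133.3 to 433 CPM in glabrous cells. S100a11 (-0.74 ± 0.45) and Pvalb (-1.08 ± 0.81) were lower in 5 of 7 and S100a10 (-0.19 ± 0.15) in 6 of 7. Again edgeR called 0 of 10187 genes (0%), with 889 at an unadjusted p under 0.05. DESeq2 called 68 genes higher and 50 lower, of which 2 were members, Calb1 (4.31 ± 1.18) and S100a1 (-1.20 ± 0.29). This contrast chose the genes, and nothing is read from those calls. S100a13 reached 20 CPM in 9 of 16 hairy Ret cells and in 47 of 47 glabrous ones. Within plate 1 the changes were -1.50 for S100a1, -2.63 for S100a6 and -2.77 for S100a13, and within plate 2 they were -0.96, -0.67 and -0.59. Calb1 had 4.69 within plate 1 and did not pass the filter within plate 2. In 4 of these litters the hairy sum and in 3 the glabrous sum held 1 cell.

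**Figure D4:**
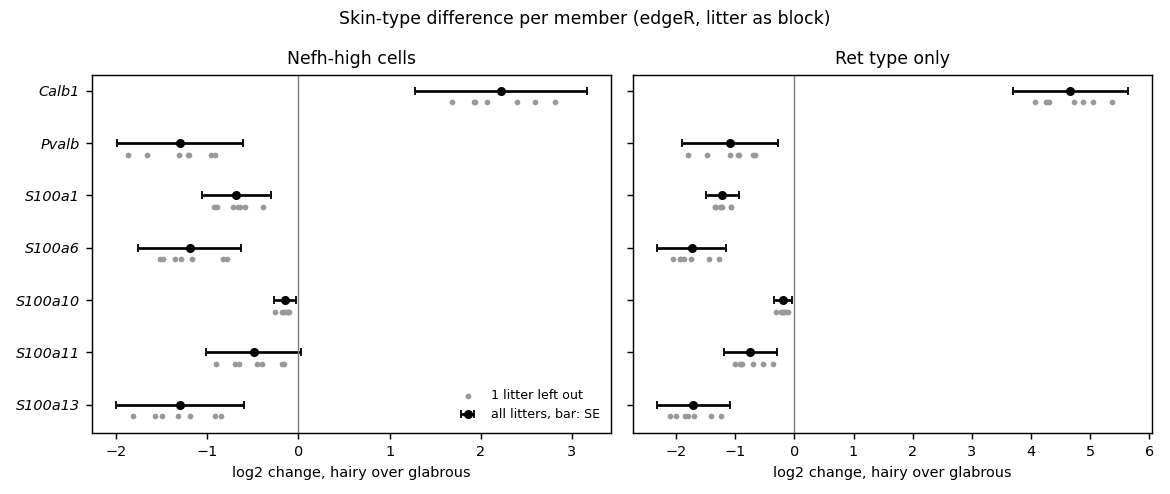
Log2 change (hairy over glabrous, edgeR with litter as block) of the 7 tested members in Nefh-high cells (left panel) and in Ret cells (right panel); black points with bars are the estimate and its SE, grey points leave out 1 litter each. Calb1 stayed between 4.07 and 5.37 in Ret cells whichever litter was left out, and S100a1 between -1.35 and -1.07. The skin contrast chose these genes, so nothing is read from how little these values moved.

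RNA of non-neuronal cells was present in these libraries. In Nefh-high cells the Schwann cell list (8 of 8 genes with counts) summed to a median of 1690 CPM in hairy and 1495 CPM in glabrous cells, satellite glia (6 genes) to 969 and 749 CPM, and fibroblasts (6 genes), which use S100a4, S100a6 and S100a11, to 232 and 149.3 CPM. Their litter means ran from 1336 to 3174 in hairy and from 1013 to 4589 CPM in glabrous cells for Schwann cells, from 110 to 1861 and from 861 to 3373 CPM for satellite glia, and from 5.58 to 3397 and from 159 to 556 CPM for fibroblasts. Macrophage genes (6) had a median sum of 3.08 and 2.95 CPM, and Adgre1 was at 0 in hairy cells. The Spearman correlation of S100a6 with the fibroblast sum was 0.12 over Nefh-high cells and with the Schwann cell sum -0.01. With the macrophage sum it was 0.40 for S100a6, 0.39 for S100a13, 0.27 for S100a11 and -0.40 for Calb1. Among Ret cells the satellite glia sum had -0.49 with S100a13, -0.37 with S100a11, -0.28 with S100a6 and 0.41 with Calb1. The part of these in the skin contrast was not tested beyond a covariate. That covariate summed the Schwann cell, satellite glia and fibroblast genes and held no macrophage genes. With the non-neuronal level as a covariate Calb1 had a change of 2.77 ± 1.06, S100a6 of -1.58 ± 0.75 and S100a13 of -1.94 ± 0.82, and 0 genes were called.

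None of the relatives of these genes passed the test between skins. Of 11 other S100 genes 4 were tested in Nefh-high cells and 0 called, with a median change of -0.46, against -0.03 over all genes. The glial and neuronal gene S100b, which marks large sensory neurons, had 663 ± 120 CPM in hairy cells (SD, n = 8 litters) and 578 ± 45.2 CPM in glabrous cells (n = 9), a change of 0.27 ± 0.12 (edgeR adjusted p = 0.815). S100a16 had -0.61 ± 0.41. Of 8 annexins 7 were tested and 0 called (median 0.00), Anxa7 with -0.17 and Anxa5 with -0.16.

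Of 29 other EF-hand buffers and sensors 25 were tested and 0 called (median 0.04). The smallest p-values there were those of Kcnip4, which encodes a subunit of A-type potassium channels (29.1 CPM in hairy, 77.7 CPM in glabrous cells, change -1.84 ± 0.43, edgeR adjusted p = 0.417), and of the neuronal calcium sensor gene Ncald (193 CPM in hairy, 296 CPM in glabrous cells, -0.68 ± 0.26). As for S100b, these levels are means over 8 hairy and 9 glabrous litters, while the changes come from the 7 litters with both skins. Of 22 calcium pumps, exchangers and stores 17 were tested and 0 called (median -0.09), with Atp2b1, a plasma membrane calcium pump gene, at -0.29 ± 0.12 and the IP3 receptor gene Itpr3 at -0.64 ± 0.29. The 7 tested members had a median of -0.68, 1 positive and 6 negative, which the way they were chosen partly fixes.

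In Nefh-low cells, whose skin contrast the choice of genes did not use, no member passed either. All genes together were shifted there, with a median log2 change of 0.56, so that changes are also given relative to it. S100a6 litter means had a lowest, median and highest value of 410, 704 and 1213 CPM in hairy cells and of 628, 775 and 941 CPM in glabrous cells (5 litters), a change of -0.31 ± 0.49, or -0.88 relative to that median. S100a13 had 4.06, 35.3 and 97.5 CPM in hairy cells and 21.3, 42.9 and 101.2 CPM in glabrous cells, a change of -0.68 ± 1.21 or -1.24 relative to it. The skins overlap for both. Of 11055 genes edgeR called 0 (0%), with 55 at an unadjusted p under 0.05, and DESeq2 called 4, none a member.

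The shift rested on litter L, whose 1 glabrous Nefh-low cell was among those under 10000 genes; without those cells the median was 0.01 and S100a6 had -0.45 ± 0.26. Calb1, Calb2 and Pvalb did not pass the filter in Nefh-low cells. Their litter means there reached 6.45, 0 and 6.26 CPM in hairy cells and 2.58, 0 and 9.55 CPM in glabrous cells of the 5 litters. The skin type by Nefh class term, over 3 litters, was 2.15 ± 3.03 for Calb1 and -0.65 ± 1.24 for S100a6, and edgeR called 0 of 12703 genes (0%), with 458 at an unadjusted p under 0.05. The data thus do not show a skin contrast that differs between the classes, and with SEs of this size they do not show equality.

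Within the Nefh-low kinds, S100a4 in Calca cells was picked out after its values were seen. Hairy Calca cells had litter means of 16.5 (E_F_G), 12.2 (L), 13.5 (M) and 16.7 CPM (P_Q), and a count in 9 of 10 cells. Glabrous Calca cells had 0 (E_F_G), 0 (H), 1.18 (I), 0 (L) and 5.69 CPM (O), and a count in 2 of 8 cells. The skins did not overlap, and no test was made. How many other genes did not overlap was not counted. Litters E_F_G and L alone held both skins, and their 1 glabrous Calca cell each had under 10000 detected genes. S100a6 went the other way in both of these litters than in Ret cells, with 1517.5 CPM in hairy and 400.7 CPM in glabrous Calca cells of E_F_G and 1142 and 628 CPM in those of L. S100a6 in Tafa4 cells averaged 548 ± 142.3 CPM in hairy cells (SD, n = 7 litters) and 915 ± 101.3 CPM in glabrous cells (n = 4), with hairy cells lower in 2 of the 3 litters that held both skins.

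Between postnatal days, compared over glabrous Nefh-high cells of 9 litters, Calb1 averaged 73.1 ± 45.7 CPM at day 5 (SD, n = 7 litters) and 21.2 ± 10.7 CPM at day 4 (n = 2), a log2 change, day 5 over day 4, of 1.77 ± 0.78 (edgeR adjusted p = 0.999). The day 4 litters had 13.7 and 28.7 CPM, within the range of 9.67 to 138.04 CPM at day 5. S100a1 averaged 24.5 ± 8.64 CPM at day 5 and 43.4 ± 1.57 CPM at day 4, a change of -0.79 ± 0.32 (edgeR adjusted p = 0.999). The highest day 5 litter, at 34.8 CPM, lay below both day 4 litters, at 42.3 and 44.5 CPM. The days also differed in their types, with 35 Ret cells of 70 at day 5 and 12 of 14 at day 4. In Ret cells alone the days overlap, at 29.5 to 65.4 CPM at day 5 and 44.5 and 53.9 CPM at day 4. The changes of the other 6 tested members lay between -0.36 (S100a11) and 1.15 (S100a4), all within 1.5 times their SE, and edgeR called 0 of 14528 genes (0%), with 332 at an unadjusted p under 0.05, while DESeq2 called 0.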

How the data were processed

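RNA of single mouse somatosensory neurons had been turned into amplified cDNA in 5 batches and into Nextera XT libraries, per the labels' protocols. The authors deposited expected counts per gene and cell; the submitters' processing notes name FastQC, cutadapt, Salmon and mm10, without versions. The annotation and any length scaling were not stated in the sources available. The deposited expected counts were whole numbers, were used as deposited, and summed to between 395811 and 1053854 per cell. No molecular identifiers are named, so reads are not independent molecules, and intervals (exact Clopper-Pearson, 95%) cover the counting of cells only. A share with a count of 0 was given the limit that 3 counts set.

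CPM is a gene's count per 1000000 counts of its cell. Levels between genes are not compared. Cells were typed by Nefh (500 CPM), the highest of Ret, Ntrk2 and Ntrk3, and Tafa4 or Calca (100 CPM). A buffer was present at 20 CPM. The 9 genes, the gene lists and the tests were chosen with earlier results of these data known. Some results are not reported here.

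For tests, counts were summed per litter and skin, filtered on low counts (filterByExpr), scaled by TMM and fitted with edgeR 4.0.16 (quasi-likelihood test, litter as block, Benjamini-Hochberg adjustment over all genes, threshold 0.05) in R 4.3.3; the comparison of days had no block, since each litter had 1 day. DESeq2 1.42.0, other scaling and filters, plates, thresholds and left-out litters were alternatives. The edgeR fits were tested on simulated data. The pairing comes from the litter in the labels; deviations of hairy and glabrous sums of 1 litter correlated between -0.151 and 0.192, best with their own litter in 3 of 7. The cell labelled with both skins entered no skin comparison. No 2 cells held identical values, the highest correlation between cells being 0.923.

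Named relatives were those with the smallest p in each list, up to 2, and named genes of like pattern the 4 with the highest Spearman correlation over Nefh-high cells among genes with a count in at least 20% of them. Gene positions are GENCODE's on mm10 and promoter sequences RefSeq's on GRCm38.p6. Python 3.11.15, pandas 2.3.3, scipy 1.17.1 and matplotlib 3.10.9 were used.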

Additional observations from a re-analysis of the deposited data

Results flagged for a closer look

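Across 52 groups of litter means, 13 held a litter that stood apart from the others, where chance gives about 1 in 20 groups if they are independent. These groups are not, since the Ret cells are also among the Nefh-high cells, and several values come from 1 cell. No excess over chance is read from the 13. Litter H stood apart with a Calb1 of 1396 CPM in hairy cells, next to 448 CPM among all Nefh-high cells and 647 CPM among Ret cells. Litter E_F_G stood apart with a Calb2 of 202 CPM and litter A_B with a Pvalb of 245 CPM in hairy cells, next to 23.7 and 92.3 CPM, both among Nefh-high and among Ret cells.

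In glabrous Ret cells litter H had an S100a10 of 1307 CPM, next to 999 CPM, and an S100a13 of 433 CPM, next to 247 CPM. In Nefh-low cells Pvalb stood apart at 15.4 CPM in hairy cells of litter P_Q (next 6.26) and at 114.1 CPM in glabrous cells of litter I (next 30.6). Among glabrous Nefh-low cells S100a1 was 64.9 CPM in litter L (next 22.1), S100a6 was 1622 CPM in litter A_B (next 941), and S100a10 was lowest in litter L, at 168 CPM (next 738). The values of litters H, A_B and L came from 1 cell each, that of E_F_G from 2, of P_Q from 8 and of I from 10 cells. The causes were not tested.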

How the results depend on the processing

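With no gene called by edgeR in any comparison, the counts under other settings were as follows. Without a filter on low counts edgeR tested 31432 genes between skins in Nefh-high cells. It called 63 higher and 163 lower in hairy cells (members Calb1, Calb2, Pvalb, S100a6 and S100a13). In Ret cells, also without the filter, it tested 29447 genes and called 183 higher and 271 lower (also S100a1 and S100a11). For the skin by class term, again without the filter, it called 34 higher and 68 lower of 30427 genes. Since the skin contrast chose the members, nothing is read from their calls. DESeq2 called 37 higher and 52 lower in Nefh-high cells, 68 higher and 50 lower in Ret cells, and 4 higher in Nefh-low cells. With no replicate block 7 genes were called lower in Nefh-high cells and 1 lower for the skin by class term, with the receptor as a term 1 lower, and with at least 2 cells per sum 1 higher and 2 lower in Ret cells. Leaving out 1 litter gave 0 to 2 calls in Nefh-high cells and 0 to 1 between days. The cause was not tested. Changes that turned direction were, within plate 2, S100a11 (0.54) and S100a13 (0.053) in Nefh-high cells and S100a1 (0.29) and S100a13 (0.39) in Nefh-low cells. Within plate 1 Nefh-low S100a6 (0.032) and S100a10 (-0.077) turned, without cells under 10000 genes S100a1 (0.64) and S100a10 (-0.15), and with no replicate block the skin by class term of S100a1 (-0.68). Leaving out 1 litter gave, in Nefh-low cells, S100a1 -1.15 to 0.14, S100a10 -0.13 to 0.52, S100a11 -0.29 to 0.028 and S100a13 -1.32 to 0.085. For the skin by class term it gave Calb1 -0.35 to 5.23, Pvalb -4.30 to 3.88, S100a1 -0.64 to 0.91, S100a6 -1.93 to 0.54, S100a10 -0.20 to 0.077, S100a11 -0.89 to 1.37 and S100a13 -0.16 to 2.27. Between days it gave Pvalb -0.52 to 0.21, S100a10 -0.23 to 0.043, S100a11 -0.70 to 0.086 and S100a13 -0.59 to 0.13. No single-gene direction turned in Ret cells under the settings run, which the way the members were chosen partly fixes. Nefh-low sums of at least 2 cells could not be fitted. Few hairy Nefh-high cells, single cells in several litter sums and counts not tied to molecules limit every skin contrast.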

Other observations

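The 1 cell labelled with both skins was a Ret cell. It had 32.6 CPM of Calb1, 53.9 of Pvalb and no Calb2, 27.6 of S100a1, 5.01 of S100a4, 556 of S100a6, 726 of S100a10, 134.1 of S100a11 and 80.2 of S100a13.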
